A study of Homo sapiens with 15 samples.

Results

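The comparison described here sets K562 cells that carried dCas9 and the guide RNA (gRNA) Cr4 against K562 cells that carried the repressor fusion dCas9-KRAB and no gRNA. It takes 6 of the 15 libraries of the study, 3 of dCas9 with Cr4 and 3 of dCas9-KRAB without gRNA, chosen by sample title and the series' design text. One annotation field names HS2 as the gRNA target in the no-gRNA group as well, and the titles were followed instead. K562 is a human erythroleukemia cell line. All libraries, the no-gRNA group included, came from cells transduced with lentivirus with the help of polybrene, selected with puromycin and stably expressing their dCas9 protein. The assay maps open chromatin: nuclei are digested with a nuclease, and sites where cut fragments pile up above the local background are listed as peaks.

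dCas9 is a form of the bacterial nuclease Cas9 that binds the DNA matched by its gRNA without cutting it. KRAB is the repressor domain of the zinc finger protein ZNF10, which recruits a co-repressor and enzymes that place repressive histone marks. HS2, the target of the gRNA, is an erythroid enhancer within the locus control region, a row of nuclease-hypersensitive sites upstream of the beta-globin genes that is bound by GATA1, TAL1 and NF-E2. A bound dCas9 can also hinder other proteins at its site without any repressor domain, and the comparison bears on that: it sets dCas9 brought to HS2 against a repressor brought nowhere. The groups differ in the gRNA and in the KRAB domain at once, so effects of the gRNA and of the missing KRAB domain cannot be told apart, and none of the 15 libraries holds dCas9 without a gRNA. The design text states transduction in triplicate, and nothing says which steps the numbered libraries shared. The exact permutation p-values therefore describe the spread of these 6 samples, part of which may be technical. Those of limma, a linear model fitted over all regions, and its SEs rest on the spread within the groups of all 15 libraries.

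The deposited lists held 68466, 70764 and 86931 peaks in replicates 1 to 3 of dCas9 with Cr4, against 63387, 88368 and 61074 peaks in those of dCas9-KRAB without gRNA. Over the 38888 regions found in each of the 15 lists, the median summit pileup (the number of fragments stacked at a peak's highest point, worked out from the fold and p-value columns) was 71, 72 and 100 with dCas9 and Cr4, against 64, 109 and 53 without gRNA. Replicate 2 of dCas9-KRAB without gRNA thus stood above its 2 partners in both measures, and replicate 3 of dCas9 with Cr4 above its own. Values were therefore compared as the rank percentile of a peak in lists cut to 53098 peaks each, with 100 for the strongest peak by fold and 0 for no peak, or as the pileup relative to the library's median. The K562 markers GATA1, TAL1, HBG1, HBG2, HBZ and HS2 had a peak in each of the 6 lists. Of the markers of other lineages, the windows taken for PAX5 (B cell) and ALB (hepatocyte) held no peak in any of the 15 lists. That for CD3E (T cell) held 1, in replicate 3 of dCas9 with Cr4. These positions were from memory and not checked, so an empty window does not show a closed gene. The myeloid gene SPI1 had a peak in all 15 lists, against the expectation for K562 under which it was listed.

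Promoter sequence shows the kind of sites through which these loci are read, and it is printed for 2 genes. HBD, the delta-globin gene of the targeted cluster, is the globin site whose groups did not overlap by rank, and GATA1 encodes the erythroid factor that binds the GATA motif. Each line gives 250 bases upstream of the start in the gene's own direction, from RefSeq on GRCh38.p14: HBD is at chr11:5234484-5234733 on the minus strand and GATA1 at chrX:48786340-48786589 on the plus strand. The peak positions below are on hg19 and were not converted. Capitals mark AGATAA (the GATA motif), CCACCC (the CACCC box of erythroid promoters), CCAAT and TGANTCA (the core of the NF-E2 site) on either strand.
HBD: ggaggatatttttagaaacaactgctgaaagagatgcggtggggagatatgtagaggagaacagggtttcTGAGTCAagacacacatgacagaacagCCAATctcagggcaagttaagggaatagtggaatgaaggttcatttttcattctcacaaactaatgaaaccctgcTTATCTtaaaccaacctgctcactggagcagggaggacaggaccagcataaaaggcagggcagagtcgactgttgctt
GATA1: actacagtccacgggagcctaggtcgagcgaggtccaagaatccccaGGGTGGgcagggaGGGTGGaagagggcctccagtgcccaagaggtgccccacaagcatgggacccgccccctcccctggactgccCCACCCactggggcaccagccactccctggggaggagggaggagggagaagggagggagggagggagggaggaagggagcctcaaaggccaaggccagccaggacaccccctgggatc
HBD holds 1 match to the NF-E2 core, 1 to CCAAT and 1 to the GATA motif, none of which overlap. GATA1 holds 3 matches to the CACCC box. Of the 35116 promoters in the table, cut to the same length, 6.57% hold the NF-E2 core, 32.0% CCAAT, 9.17% the GATA motif and 31.3% the CACCC box. These are matches of letters and not shown to be bound.

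The HS2 peak was present in all 6 libraries and tended to be lower with dCas9 and Cr4. The difference passed neither limma after adjustment nor an exact test. On hg19 the merged HS2 region runs over chr11:5301766-5302230. The summit pileup was 123, 95 and 130 fragments in replicates 1 to 3 of dCas9 with Cr4, against 135, 150 and 110 in those of dCas9-KRAB without gRNA. Relative to the library median this was 1.72, 1.32 and 1.297 times with dCas9 and Cr4, against 2.09, 1.37 and 2.06 times without gRNA. The ranges overlapped, since the lowest no-gRNA library, replicate 2, lay below replicate 1 of dCas9 with Cr4. The log2 difference was −0.34 (SE 0.19), a ratio of 0.792 with a 95% interval of 0.604 to 1.04. In limma, p was 0.0892 before adjustment and 1.0 after Benjamini-Hochberg adjustment over all 38888 regions, and the exact two-sided permutation p was 0.2, where 3 libraries against 3 cannot go below 0.1. The interval, from a fit that leaves out the replicate number, reaches from a clear loss of pileup to a slight gain, so it shows neither. With the replicate number as a block, the SE of the log2 difference was 0.13.

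Taken in pairs by replicate number, the HS2 pileup was lower with dCas9 and Cr4 in all 3 pairs, by unequal amounts. The log2 differences were −0.28, −0.06 and −0.66 in pairs 1, 2 and 3. With the replicate number as a block, limma's unadjusted p was 0.0125 and its adjusted p 1.0, while exact sign flips of the 3 pairs gave p = 0.25, the smallest they can give. The call over all regions was thus the same. Leaving out 1 library moved the log2 difference between −0.23 and −0.53. Over the 38888 regions, 0.751% had a log2 difference as low as that of HS2 or lower. In the limma fit without the block, where its unadjusted p was 0.0892, HS2 stood at place 418 when regions were ordered by p.

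By rank within the library, HS2 also gave no call. The percentile was 74.9, 52.4 and 44.6 with dCas9 and Cr4, against 70.4, 55.7 and 72.6 without gRNA. Replicate 1 of dCas9 with Cr4 was the highest of the 6 and replicate 3 the lowest. The means were 57.3 ± 15.8 with dCas9 and Cr4 and 66.2 ± 9.19 without gRNA (SD, n = 3 each), a difference of −8.89 percentile points (exact permutation p = 0.5). The pair differences were 4.57, −3.28 and −28.0 points, so their signs were mixed. Without replicate 3 of dCas9 with Cr4 the difference was −2.54 points, and without its replicate 1 it was −17.7 points. Rank follows the fold, and the local background at HS2 was itself 11.82, 11.04 and 17.26 fragments with dCas9 and Cr4, against 13.96, 18.34 and 9.54 without gRNA. Relative to the library median, the log2 background was lower with dCas9 and Cr4 in each pair, by differences of −0.40, −0.0040 and −0.23 (mean −0.21, exact permutation p = 0.3). Its part in the pileup difference was not tested.

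The place of the HS2 summit varied less between libraries without gRNA. Counted from the start of the merged region, the summit lay at base 230, 175 and 159 with dCas9 and Cr4, against 226, 229 and 224 without gRNA. Replicates 2 and 3 of dCas9 with Cr4 stood apart, to the left of every no-gRNA library. The mean positions were 188 ± 37.2 with dCas9 and Cr4 and 226 ± 2.52 without gRNA (SD, n = 3 each), a difference of −38.3 bases (exact permutation p = 0.4). Among the 15061 regions that were in no list wider than HS2, the means of the groups differed by a median of 7.67 bases, and 1.21% differed by at least as much as HS2. In the other 9 libraries, all titled for a gRNA against HS2, the HS2 summit ran from base 146 to base 249. The left-lying summits among them, at bases 174 and 146, were in replicates 1 and 2 of dCas9-KRAB with the gRNA Cr10. The rest lay at bases 224 to 249. Whether the gRNA bears on the summit was not tested. The peak was 428, 408 and 423 bases wide with dCas9 and Cr4, against 457, 427 and 412 without gRNA.

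**Figure D1:**
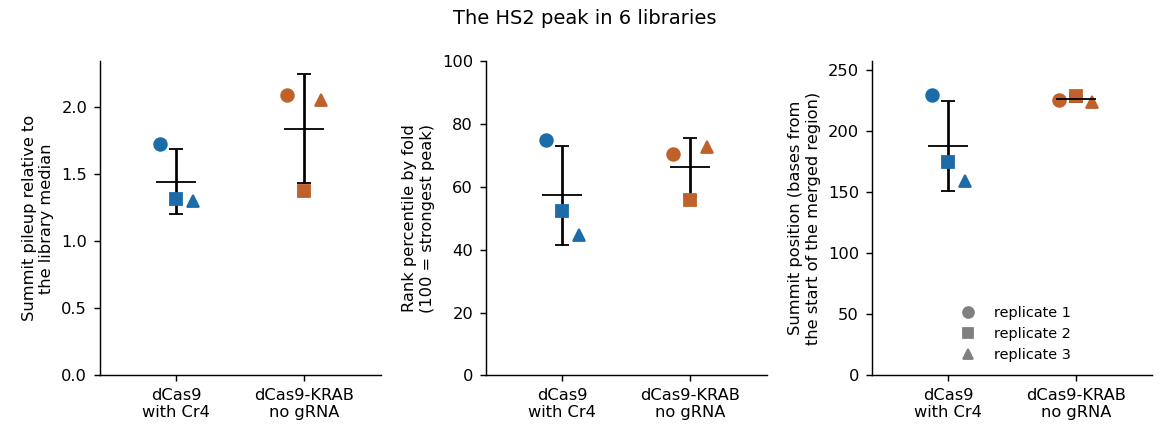
HS2 in the 6 libraries: summit pileup relative to the library median (left), rank percentile by fold (middle) and summit position in bases from the start of the merged region (right). Points are libraries with the marker showing the replicate number, and bars are the mean and SD. The groups overlap in all 3 panels, and replicates 2 and 3 of dCas9 with Cr4 have their summits at bases 175 and 159 against 224 to 229 without gRNA.

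By pileup the other sites of the locus control region also had a lower mean with dCas9 and Cr4, and none of them passed. HS1, the site nearest the genes, had relative pileups of 0.653, 0.849 and 1.23 with dCas9 and Cr4, against 0.969, 0.945 and 1.5 without gRNA, a log2 difference of −0.34 (SE 0.24). HS3, another strong enhancer of the region, had 1.32, 1.55 and 1.297 with dCas9 and Cr4, against 1.80, 1.38 and 1.76 without gRNA, a log2 difference of −0.24 (SE 0.21). HS4 and HS5, the outer sites, differed by −0.19 (SE 0.24) and −0.14 (SE 0.23), and 3′HS1, at the far end of the cluster, by −0.19 (SE 0.20). At each of these sites the ranges of the groups overlapped. Single libraries moved these values. With no-gRNA replicate 3 dropped, the differences were −0.12 at HS1, −0.05 at HS4, −0.0079 at HS5 and −0.04 at 3′HS1. With dCas9 with Cr4 replicate 3 dropped, they were −0.58 at HS1, −0.41 at HS4 and −0.25 at HS5, and 3′HS1 turned to 0.04 with dCas9 with Cr4 replicate 2 dropped. Percentiles in the deposited lists put HS5 higher with dCas9 and Cr4 by 2.13 points and HS4 by 1.10 points, and HS3 lower by a difference of −0.11 points.

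No promoter of the cluster passed a test either. HBG2 and HBG1 encode the fetal gamma-globins that K562 cells transcribe. HBG2 had relative pileups of 0.958, 1.40 and 1.19 with dCas9 and Cr4, against 1.11, 1.25 and 1.35 without gRNA. HBG1 had 1.04, 1.18 and 1.25 with dCas9 and Cr4, against 1.22, 1.18 and 1.54 without gRNA. The log2 differences were −0.08 (SE 0.19) and −0.18 (SE 0.18), and as near-identical copies these genes may exchange fragments. HBE1, the embryonic gene, had a peak in 2 lists of dCas9 with Cr4, with pileups of 21 and 25 in replicates 2 and 3, and in 1 list without gRNA, with 35 in replicate 2. The window taken for the promoter of HBB, the adult gene, held no peak in any of the 15 lists. Its position was from memory and not checked, so this does not show the gene to be closed. Between 3′HS1 and HBD, chr11:5245746-5246501 and chr11:5246781-5247127 had a peak in all 15 lists, and they were not assigned to a gene.

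HBD was the 1 site of the cluster with a higher mean pileup. Its relative pileup was 1.08, 0.863 and 1.01 with dCas9 and Cr4, against 0.969, 0.864 and 0.963 without gRNA, a log2 difference of 0.08 (SE 0.15). Its percentile was 85.8, 78.3 and 77.7 with dCas9 and Cr4, against 74.2, 77.2 and 66.6 without gRNA, so the groups did not overlap by rank while they overlapped by pileup. The difference of 7.95 points (SE 4.56) had an exact permutation p of 0.1, the smallest possible here, and an adjusted limma p of 1.0. The promoter printed above belongs to this gene.

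Across the beta-globin cluster, 8 of the 9 sites tested by pileup had a lower mean with dCas9 and Cr4, with a median log2 difference of −0.19. Over all 38888 regions 51.0% had a lower mean, with a median of −0.0027, and over the 2166 regions of chromosome 11 the median was −0.0014. By rank 7 of the 9 were lower in the equal-length lists and 4 of 9 when percentiles were taken in the deposited lists, so the tally depends on the measure. By pileup 7 or 8 of the 9 were lower whichever library was left out, but the median moved to −0.05 when no-gRNA replicate 3 was dropped, to −0.32 when no-gRNA replicate 2 was dropped and to −0.10 when dCas9 with Cr4 replicate 1 was dropped. No site of the cluster was called, and 0 of 9 had an unadjusted limma p under 0.05 in the fit without the replicate block. With the block, HS2 had an unadjusted limma p of 0.0125. Widening the view, 10 of 12 regions within 100000 bases of HS2 were lower (median −0.18) and 21 of 29 within 1000000 bases (median −0.08). Of these regions, HS2 included, 0 had an unadjusted limma p under 0.05 in the fit without the block. Among the 12 nearest, 11 were lower in pair 1, 10 in pair 2 and 8 in pair 3, with medians of −0.23, −0.09 and −0.24. These regions share their libraries and lie in one stretch of chromosome, so they are not independent of each other.

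**Figure D2:**
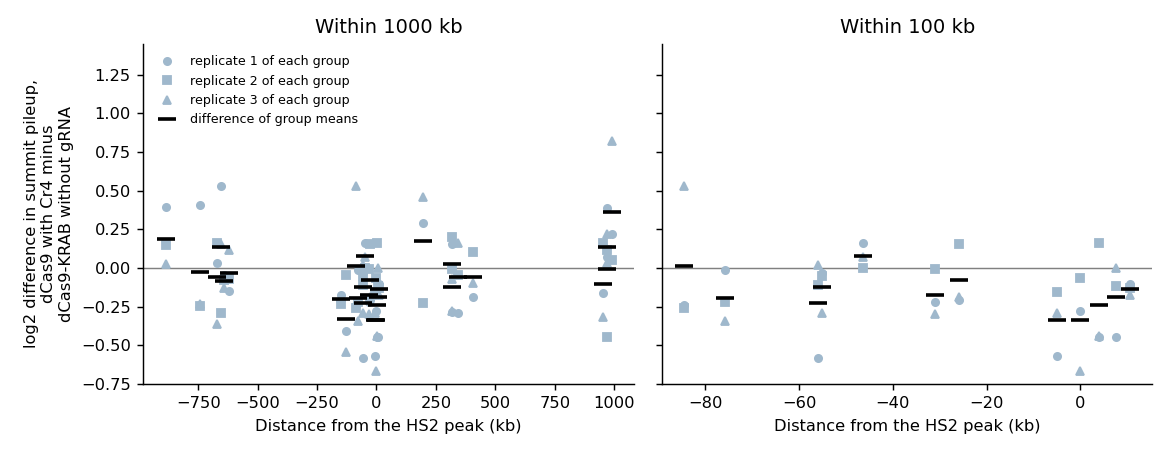
Log2 difference in summit pileup (dCas9 with Cr4 minus dCas9-KRAB without gRNA) against the distance in kb from the HS2 peak, for the 29 regions within 1000000 bases (left) and the 12 within 100000 bases (right). Black bars are differences of group means and pale markers are the 3 pairs of libraries with the same replicate number; 10 of the 12 nearest bars lie below 0.

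The alpha-globin cluster, which no gRNA was aimed at, gave 4 sites of 4 with a lower mean and a median log2 difference of −0.12. HS-40, its distal enhancer, had relative pileups of 2.22, 2.29 and 2.15 with dCas9 and Cr4, against 2.48, 1.88 and 2.39 without gRNA, a log2 difference of −0.01 (SE 0.14). HBZ, the embryonic zeta-globin gene, differed by −0.19 (SE 0.20), HBA2 by −0.09 (SE 0.18) and HBA1 by −0.15 (SE 0.18). As near-identical copies HBA2 and HBA1 may also exchange fragments, so they may not be separate observations. In replicate 1 without gRNA HBA1 reached 3.03 times the library median, against 1.76 and 1.81 in its partners and 1.70 to 2.04 with dCas9 and Cr4. The direction rested on that library: without it 0 of the 4 sites were lower, with a median of 0.08. Dropping replicate 3 of dCas9 with Cr4 left 3 of 4 lower, with a median of −0.04. The median was −0.22 with no-gRNA replicate 2 dropped and −0.26 with no-gRNA replicate 3 dropped.

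No erythroid regulator passed a test. GATA1 had relative pileups of 0.917, 0.849 and 0.980 with dCas9 and Cr4, against 1.22, 0.827 and 0.833 without gRNA, a log2 difference of −0.04 (SE 0.20). TAL1, a partner of GATA1 on enhancers, had 2.35, 2.34 and 2.10 with dCas9 and Cr4, against 2.75, 2.05 and 2.80 without gRNA, a log2 difference of −0.15 (SE 0.14). KLF1 (CACCC-box factor) differed by −0.11 (SE 0.15), NFE2 (a subunit of NF-E2) by 0.10 (SE 0.19), GFI1B (a repressor of erythroid cells) by −0.03 (SE 0.22), LMO2 (a bridge between TAL1 and GATA1) by −0.00079 (SE 0.18) and MYB (a factor of early blood cells) by 0.06 (SE 0.12). Of the 7 tested, 5 had a lower mean and 0 an unadjusted limma p under 0.05. With no-gRNA replicate 1 dropped 3 of 7 were lower, and with any other library dropped 4 or 5. The window taken for GATA2, the factor that GATA1 replaces, held no peak in any list. Its position was from memory and not checked, so this does not show the gene to be closed.

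Of the genes of red cell function, 3 of 3 tested had a lower mean, with a median of −0.08 and 0 at an unadjusted limma p under 0.05. This direction also turned without replicate 1 of the no-gRNA group, which left 0 of 3 lower with a median of 0.02, and without replicate 3 of dCas9 with Cr4, which left 1 of 3 lower with a median of 0.01. EPOR, the erythropoietin receptor, had relative pileups of 1.58, 1.85 and 1.69 with dCas9 and Cr4, against 2.11, 1.66 and 1.70 without gRNA, a log2 difference of −0.09 (SE 0.13). SLC4A1 (the band 3 anion exchanger) differed by −0.08 (SE 0.14) and TFRC (transferrin receptor) by −0.04 (SE 0.15). ALAS2, the first enzyme of erythroid heme synthesis, had a peak in 2 lists of dCas9 with Cr4, with pileups of 24 and 33, and in 1 list without gRNA, with 36. The housekeeping genes ACTB and GAPDH differed by 0.08 (SE 0.13) and 0.06 (SE 0.14), and SPI1 by 0.01 (SE 0.12).

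**Figure D3:**
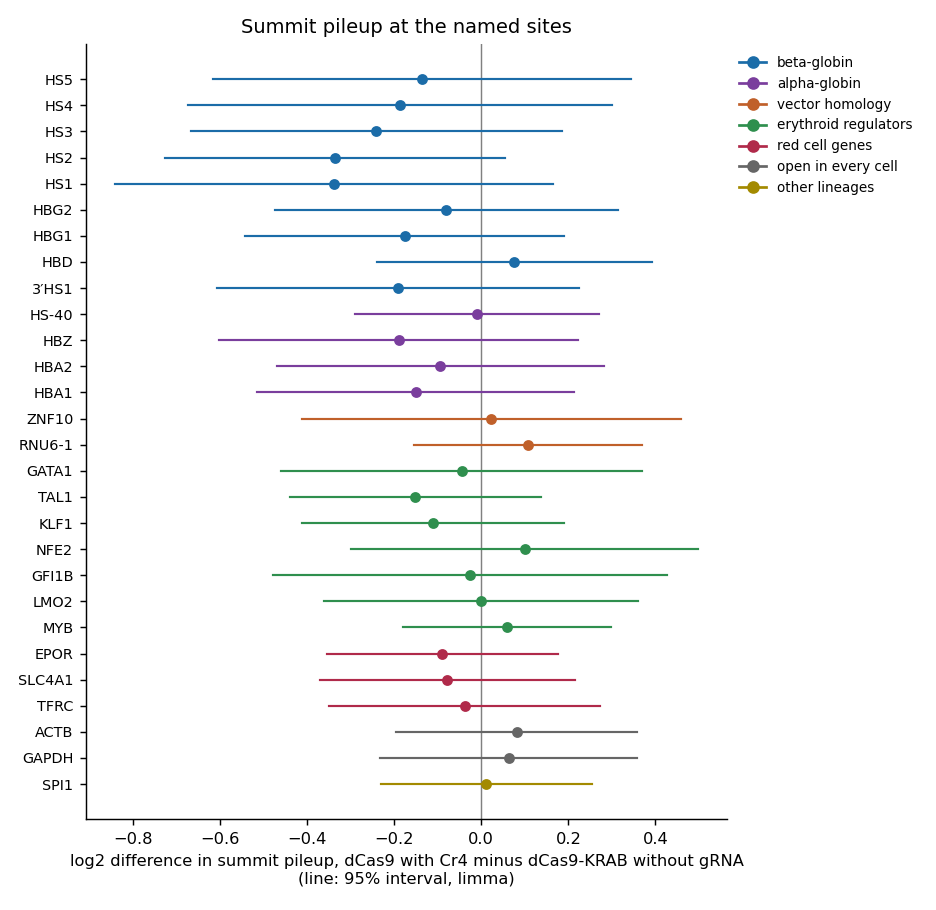
Log2 difference in summit pileup (dCas9 with Cr4 minus dCas9-KRAB without gRNA) at the 28 named sites with a peak in all 15 lists, coloured by set. Points are differences of group means. Lines are limma's 95% intervals from the fit without the replicate block, each of which includes 0. HS1 and HS2 are lowest at −0.34 and RNU6-1 is highest at 0.11.

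Sites at genes that share sequence with such vectors were looked at separately, since vector DNA can add fragments to the cell's own copy. ZNF10 is the source of the KRAB domain, which the vector of the no-gRNA group carries. Whether the ZNF10 peak covers the bases that encode KRAB was not checked. Its values therefore cannot decide whether vector DNA added fragments. RNU6-1, a gene of the U6 RNA, supplies a promoter used for gRNAs in lentiviral vectors, and the labels do not name the promoters of the vectors used here. ZNF10 had 1.24, 2.01 and 1.78 times the library median with dCas9 and Cr4, against 1.14, 1.75 and 2.13 without gRNA, a log2 difference of 0.02 (SE 0.21). Replicate 1 was low in both groups. RNU6-1 differed by 0.11 (SE 0.13).

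Over the whole genome no region was called. Ranks gave 0 limma calls (0%) in 62858 regions, and 872 of them (1.39%) had p under 0.05 before adjustment. Pileups gave 0 calls (0%) in 38888 regions, and 121 (0.311%) had p under 0.05 before adjustment. With no differences at all, a share near 0.05 would be expected, and both shares were far smaller. The p-values may thus run high, which was not tested, and 0 calls do not show the groups to be alike. By rank the groups did not overlap in 1137 regions (1.81%) with dCas9 and Cr4 above and in 1154 (1.84%) with it below, and by pileup in 549 (1.41%) above and 491 (1.26%) below. Both directions were about equally frequent. Of the 27 named sites with a rank, 2 did not overlap, HBD and ACTB, both with dCas9 and Cr4 above, while the groups overlapped at each of the 28 with a pileup. Differences in pileup were small: the quartiles over regions were −0.07 and 0.07 in log2, the extremes were −0.61 and 0.63, and 5 regions (0.0129%) went beyond a ratio of 1.5.

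By rank, the regions with the lowest p among those whose groups did not overlap had low or 0 percentiles in 1 group. A 0 means no peak in the equal-length list, and the deposited list may still hold one. LMO2, for example, had a percentile of 0 in each library compared and a peak in all 15 deposited lists. They are named by position, all on hg19, and none passed (limma adjusted p = 1.0 for each). With dCas9 and Cr4 above, the first was chr6:123190648-123190889, with percentiles of 24.4, 34.5 and 29.3 with dCas9 and Cr4, against 9.55, 13.5 and 0 without gRNA. Of the other 9 libraries, 1 had a peak there in its equal-length list. The next was chr12:96894885-96895193, with 29.4, 14.7 and 23.7 with dCas9 and Cr4, against 0 in each no-gRNA library. The third, chr3:126664032-126664370, had 31.5, 28.0 and 34.2 with dCas9 and Cr4, against 0 in each no-gRNA library. These last 2 also had a peak in the equal-length lists of 2 and 3 of the other 9 libraries.

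In the other direction the first region was chr3:133634971-133635514, with percentiles of 0, 7.24 and 0 with dCas9 and Cr4, against 36.3, 23.4 and 51.3 without gRNA. The second, chr13:44933840-44934115, had 0 in each library of dCas9 with Cr4, against 54.9, 22.3 and 51.5 without gRNA, a difference of −42.9 points, the lowest of the 62858 regions. These sites were in the equal-length lists of 4 and 2 of the other 9 libraries. Libraries with dCas9 or dCas9-KRAB and a gRNA thus included some with and some without each of them in the equal-length list. Whether the deposited lists of dCas9 with Cr4 hold a peak at these sites was not looked at here.

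Among regions open in every library, the pileup gave no call either. The lowest p with dCas9 and Cr4 above was at chr20:44992494-44992836, with pileups of 90, 85 and 115 with dCas9 and Cr4, against 56, 113 and 43 without gRNA, a ratio of 1.32 after scaling to the library median (limma adjusted p = 1.0). The lowest with it below was at chr7:130134302-130134783, with 28, 36 and 52 with dCas9 and Cr4, against 45, 73 and 42 without gRNA, a ratio of 0.656 (limma adjusted p = 1.0). At the chromosome 7 site the relative log2 pileup was −1.31, −0.98 and −0.93 with dCas9 and Cr4, against −0.50, −0.57 and −0.33 without gRNA, and −1.08 to −0.35 in the other 9 libraries. At this site both groups thus lay near or within the range of the libraries outside the comparison.

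Counted as presence or absence, nearly no site was gained or lost outright. Merging the 6 deposited lists gave 104467 regions. Each of the 6 libraries had a peak in 46545 of these (44.6%), and 21499 (20.6%) came from 1 list alone. A peak in all 3 lists of dCas9 with Cr4 and in none without gRNA was found in 20 regions (0.0191%), and the reverse in 40 regions (0.0383%). These were weak sites: the median pileup was 23 fragments in the 20 regions and 24 in the 40, and the median of the authors' fold, averaged over 3 libraries, was 4.40 in both. The lists differ in length, which bears on these counts. Without the long list of replicate 2 without gRNA the 20 regions became 2218, and without replicate 2 of dCas9 with Cr4 they became 1018. Leaving out each of the 6 libraries in turn gave 27 to 2218 regions for dCas9 with Cr4 and 83 to 528 for dCas9-KRAB without gRNA. In lists of equal length the counts were 73 and 64.

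The strongest of these regions were modest in each library that held them. With dCas9 and Cr4, chr14:53469398-53469624 had folds of 4.83, 4.42 and 7.06 and a peak in 4 of the other 9 lists, and chr19:21439566-21439852 had 4.83, 5.16 and 5.75 and a peak in 5 of them. Without gRNA, chr2:72972833-72973209 had folds of 5.77, 4.70 and 6.91 and a peak in 3 of the other 9 lists, and chr15:34372199-34372501 had 4.88, 3.59 and 8.42 and a peak in 5 of them. Of the 20 regions, 2 had no peak in any of the other 9 lists, and so had 2 of the 40. None of the 20 lay on chromosome 11, and 2 of the 40 did.

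**Figure D4:**
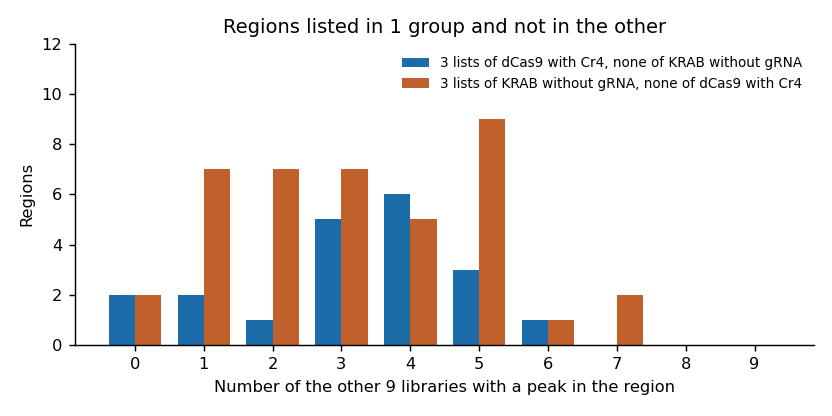
Number of regions with a peak in every list of 1 group and no list of the comparison group, by how many of the other 9 libraries had a peak there. Blue bars are the 20 regions of dCas9 with Cr4 and orange bars the 40 of dCas9-KRAB without gRNA; 2 of each had a peak in none of the other 9.

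Libraries of the same replicate number tended to share deviations across the groups, though list overlap did not show this for every pair. The overlap of 2 equal-length lists, as bases shared over bases in either, averaged 0.717 within dCas9 with Cr4, 0.676 within dCas9-KRAB without gRNA and 0.736 between libraries of the same number in the 2 groups. It was 0.707 between libraries of different number in the 2 groups. The closest pair of all was replicate 2 of dCas9 with Cr4 and replicate 2 without gRNA, at 0.804, and pair 1 had 0.721. Pair 3 had 0.684, below the 0.763 of replicate 3 of dCas9 with Cr4 and replicate 2 without gRNA. With region, group and number in a 2 by 3 layout, the mean square for the replicate number was 2.50 times the residual by pileup and 1.93 times by rank, and that for the group was 0.818 and 0.931 times. Averaged over regions, the groups thus differed by no more than the residual spread, and the replicate numbers by more.

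**Figure D5:**
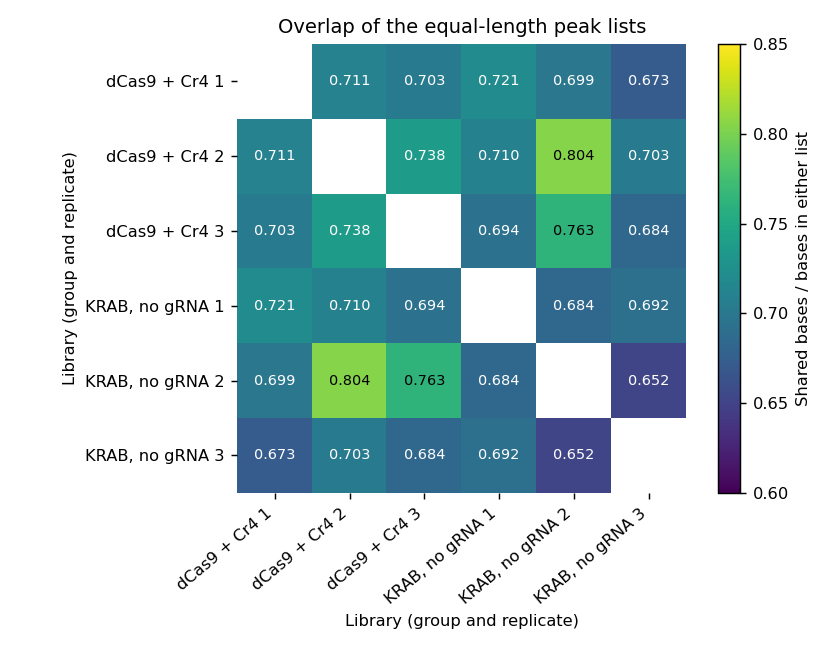
Overlap of the equal-length peak lists of the 6 libraries, as bases shared over bases in either list (colour and printed value). The highest value, 0.804, joins the replicates numbered 2 of the 2 groups, and the lowest, 0.652, joins replicates 2 and 3 of dCas9-KRAB without gRNA.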

How the data were processed

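Per the submitters' processing notes, CASAVA 1.3, BWA and bedtools were used with hg19. For the peak caller, its threshold and the read totals: not given in the sources used here. One narrowPeak list per library was deposited, with peak names in the MACS style. The authors' fold column is a ratio, summit over local background; significance is held as −log10 p-value and −log10 q-value in the deposited columns; the deposited score column was not compared. The deposited summit offset column is a position.

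Lists were limited to the 22 autosomes and X, ordered by fold and cut to the shortest (53098 peaks). Peaks overlapping by 1 base were merged into 78352 regions, and the 62858 with a peak in at least 3 of 15 lists were tested. Summit pileup k and background λ were solved from fold = (k + 1)/(λ + 1) and the Poisson p-value; a whole k met both for 100% of peaks within 0.01 in −log10 p. Log2(k + 1) was centred on the library median over 38888 regions present in all lists. Since fragments were not counted by molecule, such pileups have at least counting error (SE 0.107 for the HS2 log2 difference). Limma 3.58.1 (R 4.3.3) fitted all 15 libraries and 5 groups with a mean-variance trend, two-sided, Benjamini-Hochberg threshold 0.05. The code was tested on simulated data. Python 3.11.15, numpy 2.4.6, pandas 2.3.3, scipy 1.17.1 and matplotlib 3.10.9 were used.

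Same-numbered libraries deviated together (correlations of deviations from group means 0.339, 0.380 and 0.242 by rank, and 0.535, 0.309 and 0.409 by pileup), so the numbers were taken to pair the samples. Named are HS2 and the other listed sites, and up to 5 regions in each direction by lowest p among non-overlapping groups or by fold among regions in 1 group alone; some of these sites and regions are not reported here. Members, sites and lists were chosen with earlier results of these data known. Sites were placed by hg19 positions from memory, with no annotation to check them, taking the region in most lists, then that nearest the middle. Alternatives covered list length, ranking, filters, normalization, the limma settings, the replicate block and leaving out each library.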

Additional observations from a re-analysis of the deposited data

How the results depend on the processing

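The call of 0 regions held under every alternative run, by rank and by pileup. The count at an unadjusted limma p under 0.05 ran from 585 to 1137 by rank over the alternatives that kept all 6 libraries, and from 699 to 2667 with 1 library left out, highest without replicate 2 of dCas9-KRAB without gRNA. By pileup it was 260 with the replicate number as a block, 249 with only the 6 libraries fitted and 801 without that same library; the cause was not tested. With the replicate block, the HS2 differences stayed at −0.34 in log2 pileup and −8.89 points, and the block changed no other call. The alternatives moved 270 of 270 named-site values by pileup and 357 of 360 by rank by less than the spread between replicates. The others were TAL1 and SLC4A1 with percentiles in the deposited lists and SPI1 ranked by −log10 p. Most of this tally cannot show stability. The replicate block, the filters and limma without the trend left the site differences unchanged. Leaving out 1 library cannot shift a group mean by as much as the spread within the groups. Directions still turned: by pileup, 4 of 4 alpha-globin sites were lower, but 0 of 4 without replicate 1 of dCas9-KRAB without gRNA.

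The counts of regions in 1 group alone depended on the setting. The 20 regions of dCas9 with Cr4 became 73 in lists of equal length and 96 when peaks were merged by summits within 100 bases, and the 40 without gRNA became 64 and 63. Leaving out 1 library gave 27 to 2218 regions for dCas9 with Cr4 and 83 to 528 for dCas9-KRAB without gRNA; fewer lists then have to agree. The depth behind them was not varied.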
